A study of Mus musculus with 6 samples.

Results

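The comparison described here is SP600125 against its vehicle, DMSO, in A20 cells after 12 h of TGF-β. A20 is an established B lymphoma line from a BALB/c mouse, and a single line was used. The 2 arrays were taken by their titles from 6 Affymetrix Mouse Genome 430 2.0 arrays, and all 45101 probe sets were compared. 1 array held cells given TGF-β for 12 h with DMSO, and the other held cells given TGF-β together with SP600125 for 12 h. The remaining arrays held unstimulated cells with DMSO, unstimulated cells kept in SP600125 for 24 h, and cells given TGF-β for 24 h with DMSO or with SP600125. The labels give no dose for TGF-β or SP600125. The labels do not say whether the arrays came from separate cultures. The study asked which genes raised by TGF-β need JNK activity for it.

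SP600125 competes with ATP in the c-Jun N-terminal kinases (JNK), which are activated by stress and cytokines and phosphorylate c-Jun, a subunit of the transcription factor AP-1. TGF-β acts through its receptor kinases on Smad proteins and also on MAP kinase cascades that include JNK, and in B cells it restrains growth. 2 other programmes bear on these data. In the integrated stress response, phosphorylation of eIF2α favours translation of the transcription factor ATF4, which drives genes for amino acid synthesis and import, and SREBP proteins drive genes of cholesterol and fatty acid synthesis.

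In the 12 h pair Trib3, Cebpb, Cth, Jdp2 and Atf5 were among the genes highest with drug, by 2.27 to 3.01 (log2), and Ptgir and Scd1 among the lowest, by -2.24 and -1.58. Genes of the ATF4 programme and of amino acid synthesis and import were higher. Genes of cholesterol synthesis and protein folding in the endoplasmic reticulum were lower. The direct Smad targets Smad7, Id2 and Skil, all high after TGF-β, were within 2-fold with and without drug. Each gene was represented by its probe set with the highest mean log2 signal, the floor was the median over the 6 arrays (74.2), to which lower signals were raised, and differences are log2 signal with SP600125 minus log2 signal with DMSO. Where 1 array lay below the floor, the fold is a lower bound and is written "at least".

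Of 11610 genes above the floor on at least 1 of the 2 arrays, 210 were at least 2-fold higher with SP600125 (1.81%) and 130 at least 2-fold lower (1.12%). Over all probe sets above the floor, 441 of 24743 were higher (1.78%) and 276 were lower (1.12%). The median difference was 0.02, with 5478 genes below 0 and 6130 above, and 5% of genes lay below -0.60 and 5% above 0.71. At least 3-fold differences were seen for 35 higher and 9 lower genes, and at least 4-fold for 15 and 2. For 69 of the higher and 48 of the lower genes the fold is a bound.

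With 1 array a side the pair has no replicate check. An error was therefore taken from limma on all 6 arrays, in which the disagreement between the drug pairs at 0 h and 24 h gave the spread. In that fit no gene passed a Benjamini-Hochberg adjusted p of 0.05 for the 12 h difference, and the smallest adjusted p was 0.264. At an unadjusted p under 0.05 there were 440 higher (3.76%) and 406 lower (3.47%) genes. The drug effect averaged over the 3 pairs, which share no array, called 485 genes as rising (4.15%) and 440 as falling (3.76%) among 11698 tested. With arrays scaled to a common median it called 349 as rising and 678 as falling. "Rose" and "fell" below refer to these calls, and ± is a standard error from limma. The average calls needed all 6 arrays: leaving out 1 of them, which also left 1 residual degree of freedom, limma called 0 to 133 genes. The count was 0 without either 24 h array, 31 without the 12 h drug array and 37 without the 12 h DMSO array. At an unadjusted p under 0.05 there were 1885 genes without the 24 h drug array and 1883 without its DMSO array. All 925 called genes kept their direction each time, with a median estimate of 0.96 to 1.07 times that on 6 arrays. The 24 h drug array also had a mean signal of 4291.2 on the control probe sets for 18S ribosomal RNA, against 370.9 to 651.4 on the other 5. Within the 12 h pair the 18S signal was 621.4 with DMSO and 651.4 with drug. The part of 18S signal in the average calls was not tested.

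**Figure D1:**
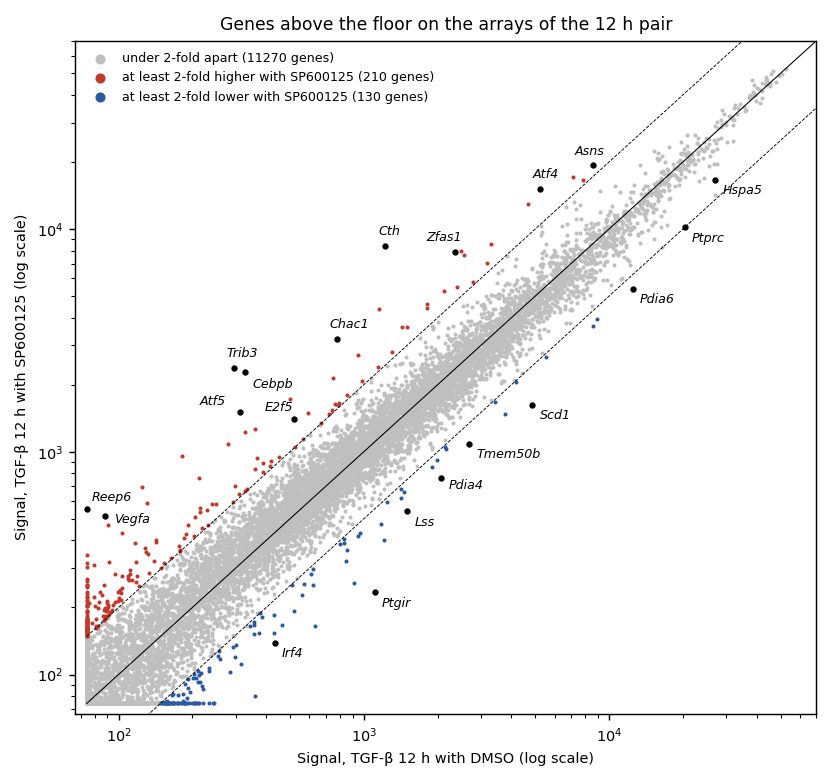
Signal of each gene at 12 h of TGF-β with DMSO (x axis) and with SP600125 (y axis), both on log scales, with signals below the floor drawn at the floor of 74.2. Each point is 1 gene on 2 arrays. The solid line marks equal signals and the dashed lines a 2-fold difference. The 210 red and 130 blue points are the genes past it, with Trib3 (3.01), Reep6 (2.91, from the floor), Cebpb (2.80) and Cth (2.78) farthest above the line and Ptgir and Scd1 among the bright genes below it.

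ATF4 and stress factors, a list wider than the regulators of the integrated stress response, held several of the highest genes. Of 20 members above the floor 10 were at least 2-fold higher and 0 were lower. The median was 1.10 against 0.02 over all genes. On average over the 3 pairs 13 rose and 1 fell. Trib3, a pseudokinase that restrains ATF4 and Akt, read 295.0 with DMSO and 2379.5 with drug, a difference of 3.01. The unstimulated pair gave 3.94 and the 24 h pair 3.79, and its average of 3.58 ± 0.18 had a limma adjusted p of 0.000117. Its other probe set went from 184.3 to 1793.9, so both probe sets placed the gene at over 8-fold. Atf4 itself, already bright at 5245.1, read 15179.3 with drug (1.53), and its differences at 0 h and 24 h were 1.57 and 1.38. The 3 pairs thus gave Atf4 much the same difference on that probe set. The mean of all its probe sets gave 1.09 at 12 h.

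The transcription factors downstream of or beside ATF4 were higher too. Cebpb, a leucine zipper factor, went from 328.6 to 2289.8 (2.80), and its second probe set from 119.2 to 610.4 (2.36). Atf5, which is translated under the same control as Atf4, went from 312.0 to 1508.5 (2.27). Ddit3, the stress factor CHOP, went from 499.1 to 1724.2 (1.79), and Cebpg from 1503.1 to 3624.9 (1.27). All of these rose on average, with limma adjusted p between 9.78e-05 for Cebpb and 0.000375 for Cebpg. Among effectors, Chac1, which degrades glutathione, went from 775.5 to 3198.1 (2.04). Eif4ebp1, a repressor of cap-dependent translation, went from 2490.9 to 7969.0 (1.68), and Ppp1r15a, which directs dephosphorylation of eIF2α, from 367.8 to 936.9 (1.35). Sesn2, a leucine sensor, went from 215.7 to 559.2 (1.37), a smaller difference than in the unstimulated pair (3.14). The eIF2α kinases lay within 2-fold, with values of 0.10 for Eif2ak3 (PERK), -0.33 for Eif2ak4 (GCN2), -0.34 for Eif2ak1 and 0.54 for Eif2ak2. Xbp1, the effector of the IRE1 branch, was the factor that fell, from 9565.0 to 6879.4 (-0.48).

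Enzymes that make amino acids showed the same direction. Of 16 above the floor 9 were at least 2-fold higher and 0 lower, with a median of 1.12, against 0.78 in the unstimulated pair and 0.71 at 24 h. On average 10 rose and 1 fell. Cth, which makes cysteine from cystathionine, went from 1222.8 to 8400.7 (2.78) and had the smallest adjusted p of these genes (3.15e-05, average 2.87 ± 0.10). Pck2, the mitochondrial PEP carboxykinase, went from 1155.5 to 4394.8 (1.93), and Gpt2, an alanine transaminase, from 280.3 to 1080.7 (1.95). The 4 probe sets of Gpt2 gave 1.23 to 1.96.

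Enzymes of asparagine, serine and one-carbon metabolism were among the brightest. Asns, asparagine synthetase, reached 19278.9 from 8609.5 (1.16), and Psat1 reached 16575.8 from 7845.5 (1.08). Shmt2 went from 4677.3 to 12961.9 (1.47) and Mthfd2 from 1803.7 to 4587.2 (1.35). Both are mitochondrial enzymes of folate metabolism, and both differed less in the unstimulated pair, at 0.79 and 0.82. The cytosolic counterpart of Shmt2 was the member that fell: Shmt1 went from 1967.4 to 1258.9 (-0.64). Phgdh, which commits carbon to serine, went from 12600.1 to 15750.2, a difference of 0.32 that did not pass on average (adjusted p 0.0895).

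Among 15 amino acid transporters 5 were at least 2-fold higher and 0 lower, with a median of 0.83, and on average 9 rose and 0 fell. Slc1a4, a carrier of neutral amino acids, went from 328.8 to 1229.2 (1.90), and Slc6a9, a glycine carrier, from 358.5 to 1267.9 (1.82). The 2 chains of the leucine exchanger both rose on average, Slc7a5 from 2113.3 to 5256.9 at 12 h (1.31) and Slc3a2 from 5288.3 to 9402.3 (0.83). Of 19 cytosolic aminoacyl-tRNA synthetases 1 was 2-fold higher, Iars, from 2778.0 to 5806.6 (1.06). The list had a median of 0.35, yet 10 rose on average and 0 fell. Sars (0.99) lay just under the 2-fold line, and Nars (0.91), Aars (0.83) and Gars (0.75) lay further below it. The synthetases for arginine, lysine and histidine stayed near 0, at -0.16 for Rars, -0.09 for Kars and -0.04 for Hars.

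The response element bound by ATF4 and C/EBP dimers was looked for in the 250 bases before each RefSeq start site (build GRCm38.p6), as the letters TGATGNAAN on either strand. It was present in 3.44% of 32851 promoters. Counted per gene, with a match at any of its starts, it was present for 3.89% of 27025 genes. Among genes above the floor at 12 h, 2.38% of those with a listed promoter had it, against 9 of 168 at least 2-fold higher (5.36%) and 1 of 101 at least 2-fold lower (0.99%). In the list of stress factors it was present for 5 of 21 genes, in amino acid synthesis for 3 of 14 and among transporters for 2 of 11. These are matches of letters, with no measure of binding. The stretches below come from genes that were higher with drug at 12 h, and capitals mark the match, which in Chac1 and Pck2 lies on the opposite strand.
Chac1 (chr2:119351008-119351096, plus strand): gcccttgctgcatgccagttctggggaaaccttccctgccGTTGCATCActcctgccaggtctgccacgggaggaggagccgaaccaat
Asns (chr6:7693210-7693272, minus strand): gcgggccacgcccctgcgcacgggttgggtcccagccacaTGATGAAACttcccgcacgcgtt
Pck2 (chr14:55540122-55540210, plus strand): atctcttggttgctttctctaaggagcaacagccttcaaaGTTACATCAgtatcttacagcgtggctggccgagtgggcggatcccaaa
Jdp2 (chr12:85599343-85599415, plus strand): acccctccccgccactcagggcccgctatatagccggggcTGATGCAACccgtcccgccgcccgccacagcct
The match began at position -23 from the start site in Asns, -104 in Pck2, -194 in Chac1 and -33 at 1 of the starts of Jdp2. Trib3, Cebpb, Ddit3 and Atf5 had no match in this window. Nor had the higher genes Vegfa, Slc6a9, Gpt2, Psat1, Slc1a4, Adm2, Sesn2 and Zfas1. Slc7a11, which was within 2-fold at 12 h, had 2 matches.

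Transcripts that host small nucleolar RNAs were higher alongside. Most of them carry a 5′ terminal oligopyrimidine tract and are degraded in the course of translation. Of 10 above the floor 3 were at least 2-fold higher and 0 lower, the median was 0.82, and 9 rose on average. Zfas1 went from 2354.2 to 7907.0 (1.75), Snhg6 from 1432.7 to 3639.0 (1.34) and Gas5 from 5268.5 to 10331.1 (0.97). Snhg3 was the exception at -0.39. Cytosolic ribosomal protein genes, which share the tract, had 0 of 23 past 2-fold and a median of 0.07.

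Other leading genes were of varied function. Vegfa, the endothelial growth factor, went from 87.7 to 514.4 (2.55), more than in the unstimulated (1.79) or 24 h (1.87) pair. Cox6a2, the muscle form of a cytochrome oxidase subunit, went from 181.6 to 954.7 (2.39), less than in the unstimulated (4.37) and 24 h (3.29) pairs. Adm2, a peptide hormone, went from 91.0 to 469.5 (2.37) and Angptl6 from 131.0 to 587.0 (2.16). Gys1, glycogen synthase, went from 102.9 to 431.3 (2.07). Reep6 lay below the floor with DMSO (33.8) and read 556.2 with drug, at least 7.50-fold higher. Dtx3, Glipr2 and Uroc1 were also below the floor with DMSO, with drug signals of 343.7, 317.6 and 303.3. All 15 of the highest genes rose on average, with adjusted p from 3.15e-05 for Cth to 0.0268 for Uroc1, although the 12 h difference that chose them is also part of that average. Of the 15 lowest 5 fell, Ptgir, Chn1, BC035044, 1810014B01Rik and Scd1. Of all genes past 2-fold at 12 h and tested, 98 of 208 higher genes rose and 40 of 126 lower genes fell. A further 3 probe sets without a listed gene symbol lay in the same range, from 2.26 to 2.93, and 3 others were lower by -2.10 to -2.43, the lowest of them below Ptgir.

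**Figure D2:**
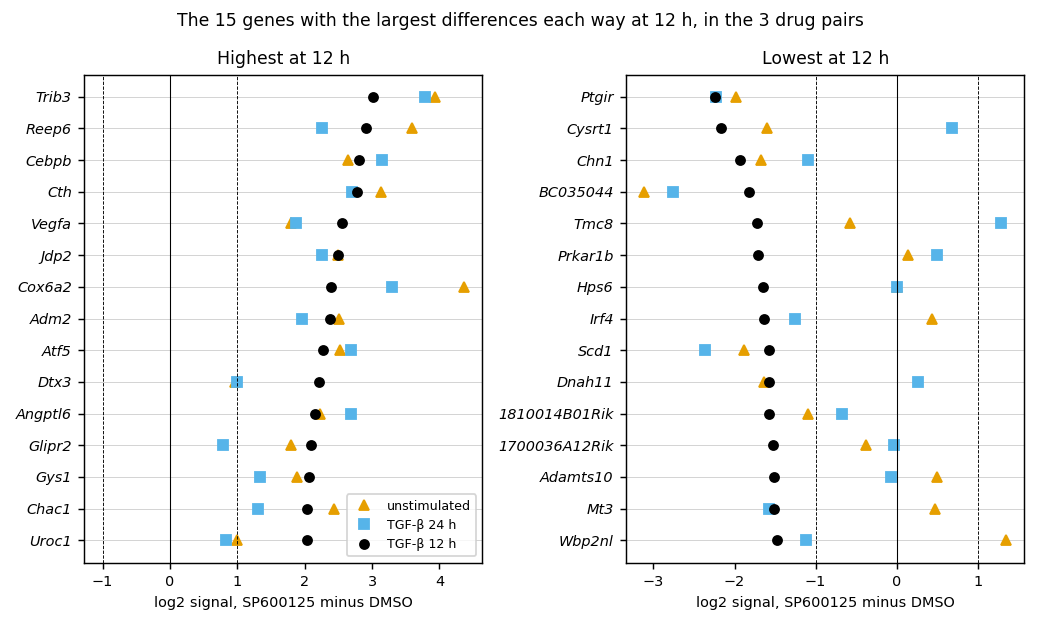
Difference in log2 signal, SP600125 minus DMSO, for the 15 highest and the 15 lowest genes of the 12 h pair. Circles are the 12 h pair, triangles the unstimulated pair and squares the 24 h pair, 1 value per pair, and dashed lines mark 2-fold. All 15 genes on the left lie above 0 in each pair, and on the right Ptgir, BC035044 and Scd1 are low in each pair while Cysrt1, Tmc8, Irf4 and Wbp2nl are among those on both sides of 0.

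Genes of cholesterol synthesis read lower with drug at every enzyme above the floor. All 17 enzymes above the floor read lower with drug at 12 h, with differences from -0.26 to -1.48 and a median of -0.69, although 2 passed 2-fold. On average 14 fell and 0 rose. Lss, which closes the sterol ring, went from 1503.7 to 540.0 (-1.48), and its other probe sets gave -0.62 and -0.61. Hsd17b7 went from 851.8 to 362.8 (-1.23). Upstream, Hmgcs1 went from 15178.8 to 8973.8 (-0.76), Fdps from 8539.3 to 4529.5 (-0.91) and Sqle from 4349.7 to 3047.5 (-0.51). The list's median at 12 h lay closer to 0 than at 0 h (-0.94) and 24 h (-1.13).

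The letters TCACNCCAC of a sterol response element occurred, on either strand, in 1.05% of promoters and for 1.22% of genes with a listed promoter. They were found for 1 of 14 cholesterol genes, Hmgcs1 (chr13:119690174-119690262, plus strand), where they began at position -137 and are in capitals here.
Hmgcs1: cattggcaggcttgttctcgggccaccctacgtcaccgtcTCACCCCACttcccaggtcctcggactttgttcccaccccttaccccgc

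Fatty acid genes were lower in part. Of 16 above the floor 14 read below 0, the median was -0.42, and on average 7 fell and 0 rose. Scd1, the desaturase that makes oleate, went from 4866.2 to 1629.9 (-1.58), and its second probe set from 1102.9 to 542.3 (-1.02). Scd2 (-0.67), Acaca (-0.63), Acly (-0.62) and Fasn (-0.60) were lower by less and fell on average. Among regulators, Srebf1 was at -0.67 and Insig1 at -0.89, and both fell on average. Srebf2 (-0.21) and Scap (-0.05) did not pass.

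Chaperones of the endoplasmic reticulum were lower while ATF4 genes were higher. Of 24 above the floor 4 were at least 2-fold lower and 0 higher, 19 read below 0, and the median was -0.60. The median was -0.52 at 0 h, with 6 at least 2-fold lower, and -0.21 at 24 h, with 1. On average over the 3 pairs 13 fell and 3 rose. When probe sets were averaged per gene, 2 were at least 2-fold lower at 12 h and the median was -0.42. Pdia4, a disulfide isomerase, went from 2070.2 to 764.5 (-1.44), Creld2 from 3776.9 to 1479.1 (-1.35), Pdia6 from 12469.6 to 5398.6 (-1.21) and Sdf2l1 from 3425.2 to 1665.9 (-1.04). Hspa5, the chaperone BiP, went from 27109.6 to 16636.4 (-0.70). The other 2 Hspa5 probe sets gave -0.90 and 0.10. The 3 members that rose on average take part in degradation rather than folding, Derl1 (0.43 at 12 h), Herpud1 (0.39) and Sel1l (0.25). Heat shock genes, a list that includes the mitochondrial chaperones Hspd1 and Hspe1, had 0 of 16 past 2-fold and a median of -0.16.

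**Figure D3:**
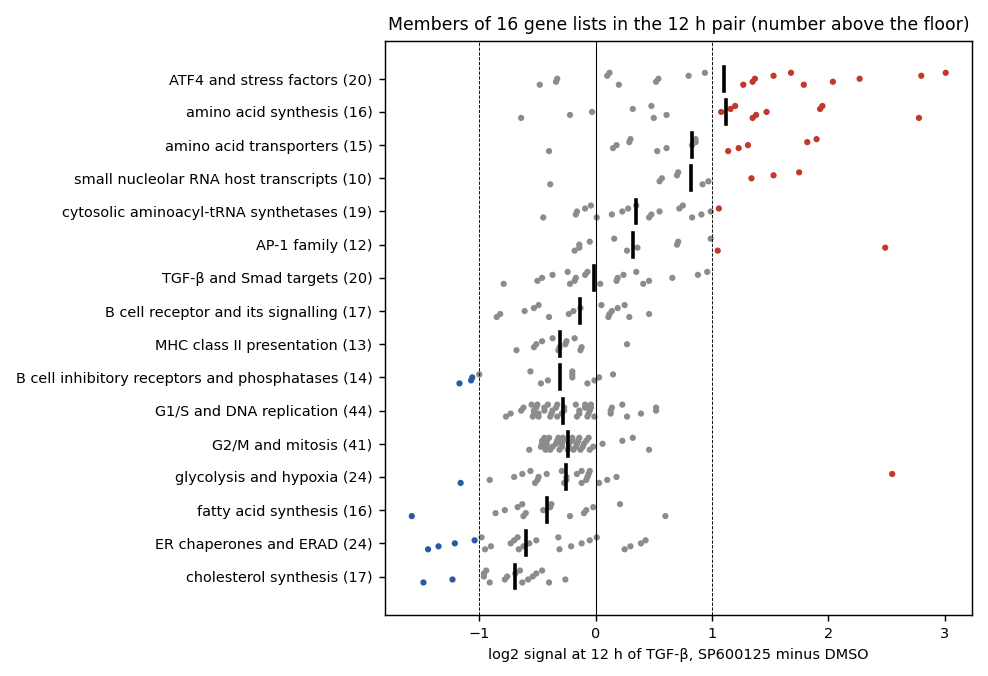
Difference in log2 signal at 12 h of TGF-β, SP600125 minus DMSO, for the members of 16 of the 45 gene lists. Each point is 1 gene above the floor, red where at least 2-fold higher and blue where at least 2-fold lower, and the black bar is the list's median. The ATF4, amino acid and small nucleolar RNA host lists lie to the right, with medians from 0.82 to 1.12, and all 17 cholesterol genes lie left of 0.

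The kinases the drug is directed at were within 2-fold, while 2 AP-1 genes were higher. Mapk8 (JNK1) read 949.0 and 829.0 (-0.20) and Mapk9 (JNK2) 1431.2 and 1078.0 (-0.41), while Mapk10 (JNK3) was below the floor on both arrays. Of 14 genes of the JNK cascade 1 was 2-fold higher, Map3k12, a kinase of neurons and of stress, from 783.4 to 1617.9 (1.05), with an average adjusted p of 0.0634. Of 12 AP-1 genes 2 were 2-fold higher, with a median of 0.32. Jdp2, a partner of c-Jun that represses AP-1, went from 124.3 to 697.7 (2.49) and had 2.49 at 0 h and 2.25 at 24 h, and its other probe set was below the floor on both 12 h arrays. Jun went from 92.4 to 191.6 (1.05), with -0.37 at 0 h and 1.12 at 24 h, and its average did not pass (adjusted p 0.279). Jun stayed under 2-fold with median scaling (0.99), quantile normalization (0.98), the mean of its probe sets (0.75) and signal plus 50 (0.76), and a floor of 200 lies above both its signals. Junb (0.16), Jund (-0.14), Fos (-0.14) and Atf2 (-0.18) were within 2-fold, and Batf, an AP-1 factor of lymphocytes, rose on average (0.71 at 12 h). Immediate-early genes had 0 of 15 past 2-fold (median 0.30), and MAPK phosphatases 0 of 12 (median 0.37). Dusp5, which acts on ERK, went from 495.3 to 862.9 (0.80) and rose on average. The AP-1 letters TGANTCA, which cannot match at the same bases as TGATGNAAN, occurred in 6.75% of promoters and for 7.82% of genes with a listed promoter. They were present for 5.28% of such genes above the floor, 14 of 168 higher genes (8.33%) and 7 of 101 lower genes (6.93%).

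The TGF-β programme itself was described on 4 arrays, the 12 h pair and the 2 unstimulated arrays. In the DMSO arm 378 genes read at least 2-fold higher at 12 h of TGF-β than in unstimulated cells (3.32%), and 170 were at least 2-fold lower (1.49%). With drug in both arms the counts were 291 (2.51%) and 152 (1.31%). The rise without drug and the drug difference at 12 h share the array with DMSO, so a high or low signal on that array alone places a gene in both counts. The unstimulated drug array had 24 h of SP600125 and the 12 h array 12 h.

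Of 20 Smad targets above the floor 0 were past 2-fold with drug, with 10 on either side of 0 and a median of -0.01. Smad7, the inhibitory Smad, read 123.6 unstimulated, 485.1 at 12 h with DMSO and 619.2 at 12 h with drug. Id2, a repressor of helix-loop-helix factors, read 481.0, 2678.0 and 2555.6. Skil, a Smad corepressor, read 2986.9, 10869.8 and 9688.7. All 3 were thus far above the unstimulated level with or without drug. The drug difference of Smad7 at 12 h was 0.35, and 0.78 for the mean of all its probe sets. Tgfbr1, the type I receptor, read 1031.7 unstimulated, 5368.3 at 12 h with DMSO and 3844.7 with drug, and its 3 probe sets were lower with drug at 12 h, by -0.48 to -0.95. Its difference was 0.98 in unstimulated cells. Tgfbr2 was at -0.03, and none of 14 ligands, receptors and Smads passed 2-fold, with Smad4 at 0.69 and rising on average.

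Of the 378 inducible genes 49 were at least 2-fold lower with drug at 12 h, 4 were at least 2-fold higher, and 325 were within 2-fold. Their median difference was -0.23. By the measure in the series' design, the increase over the unstimulated array of the same drug arm was over 75% smaller with drug for 115 genes, 25 to 75% smaller for 146, and for 117 it was under 25% smaller or was larger. Of the 115 only 42 were also 2-fold lower at 12 h. For 13 of them the 12 h signal was at least as high with drug.

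Ptgir, the prostacyclin receptor, was lowest of all named genes. It read 309.3 unstimulated, 1107.7 at 12 h and 635.9 at 24 h with DMSO, and 78.3, 234.2 and 135.9 with drug. The drug arrays were thus low by 4.73-fold at 12 h and by a like amount at the other times (-1.98 and -2.23), and Ptgir fell on average (-2.15 ± 0.19, adjusted p 0.00112). The 12 h signal stood above the unstimulated one by 1.58 with drug and by 1.84 with DMSO. Other genes were at least 2-fold lower with drug at 12 h but within 2-fold in unstimulated cells. Tmem50b, a protein of the endoplasmic reticulum membrane named after its values were seen, read 655.0 and 2696.9 with DMSO and 939.7 and 1087.1 with drug, and at 24 h the signals were 3132.8 and 1441.8. Snai2, the repressor Slug, also named after its values were seen, read 136.0, 618.4 and 195.0 with DMSO and 103.7, 251.7 and 277.8 with drug. Adamts10, a metalloprotease, read 86.8, 316.2 and 133.5 with DMSO and 121.6, 111.3 and 127.4 with drug, so 1 array stood out of 6. The mean of all Adamts10 probe sets gave -0.75 at 12 h.

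Dimmer genes of this group varied in form. Hps6 read 233.6 at 12 h with DMSO and at most 31.9 on the other arrays. Scnn1a read 199.1 there and at most 56.8 elsewhere. Gpr31b read 429.7 against 154.0 with drug at 12 h (-1.48), Sema3b read 283.7 against 103.1 (-1.46), and the latter was also low with drug at 24 h, at 58.0 against 569.3. Wbp2nl and Spsb2 read 207.1 and 204.1 with DMSO and 19.3 and 50.5 with drug at 12 h, but in unstimulated cells both were higher with drug, at 189.4 and 199.1 against 58.9 and 42.4. The 4 inducible genes that were higher with drug were Apoc2 (750.0 and 2136.9), Sesn2, Slc38a6 (984.9 and 2068.7) and Ypel3 (741.5 and 1541.8). Apoc2, an apolipoprotein, was also higher with drug in unstimulated cells (2.66) and at 24 h (1.49) and rose on average.

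Among the 170 genes lower after 12 h of TGF-β, 24 were at least 2-fold higher with drug and 2 at least 2-fold lower, BC035044 and Fgd2. E2f5, a repressive E2F factor that also binds Smads, read 1618.5 and 517.1 with DMSO and 1966.0 and 1409.3 with drug (1.45 at 12 h), and at 24 h the signals were 1193.2 and 1541.8. The other 2 E2f5 probe sets gave 0.53 and 0.28. Cpeb2, a regulator of mRNA translation, read 658.4, 211.9 and 277.4 with DMSO and 854.5, 765.5 and 1004.4 with drug, so it was higher with drug at 12 h (1.85) and at 24 h (1.86), and it rose on average. Its second measured probe set gave 0.82. Vamp2, a vesicle SNARE protein, read 91.6 and 320.0 at 12 h (1.80), but its other probe set gave -0.78. Ankrd39 (1.46) had probe sets at 0.11 and -0.32. Klhl26, Marchf10 and Pltp were below the floor at 12 h with DMSO and read 268.8, 246.7 and 230.4 with drug.

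**Figure D4:**
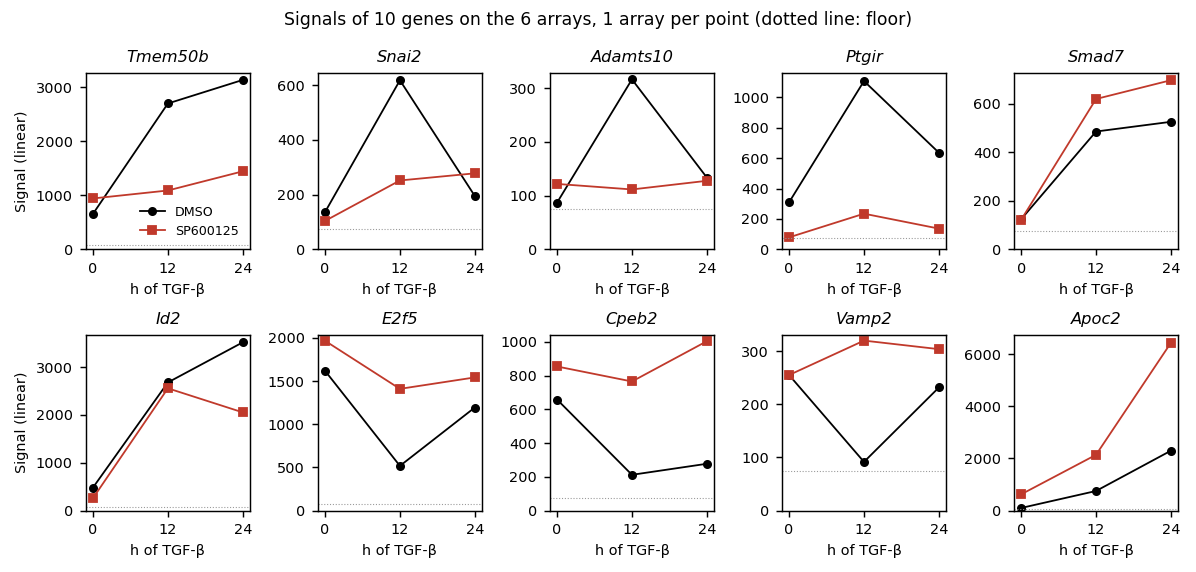
Signal on a linear scale (y axis, from 0) against hours of TGF-β (x axis) for 10 genes, with DMSO in black and SP600125 in red, 1 array per point. At 12 h Tmem50b, Snai2, Adamts10 and Ptgir are lower with drug, Smad7 and Id2 lie close together, and E2f5, Cpeb2, Vamp2 and Apoc2 are higher. The drug point at 0 h comes from cells kept in SP600125 for 24 h.

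Genes of B cell identity and signalling were mostly within 2-fold. The B cell receptor list had 0 of 17 past it, with a median of -0.13: Ighm was at 0.14, Cd79a at -0.19, Cd79b at 0.12 and Syk at -0.23. Pik3ap1, an adaptor of PI 3-kinase, went from 6658.2 to 3780.8 (-0.82), Cr2 from 860.6 to 477.4 (-0.85) and Plcg2 from 8752.6 to 6051.5 (-0.53), and these fell on average. Inhibitory receptors and phosphatases were lower, with 3 of 14 past 2-fold, 0 higher and a median of -0.31, and 7 fell on average. Ptpn6, the phosphatase SHP-1, went from 8924.8 to 3964.4 (-1.17), Cd22 from 2158.0 to 1031.3 (-1.07) and Fcgr2b from 5511.2 to 2651.7 (-1.06). When probe sets were averaged per gene, 0 of the 14 passed 2-fold, and Ptpn6 was at -0.90. Ptprc, CD45, went from 20367.8 to 10189.3 , just inside 2-fold.

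Irf4, a factor of plasma cell and germinal centre programmes, read 433.3 and 139.1 (-1.64), with 0.44 at 0 h and -1.26 at 24 h. Its average did not pass (adjusted p 0.218), and its other probe set gave -0.35. It was the only 1 of 21 B cell and plasma cell factors past 2-fold (median -0.27), and Ms4a1 (-0.82) and Ebf1 (-0.85) fell on average. Tnfrsf13c, the BAFF receptor, went from 1980.8 to 914.8 (-1.11) and fell, and Tnfrsf1a went from 84.2 to 235.0 (1.48), with -0.25 and 0.19 in the other pairs. Chn1, a Rac regulator, went from 630.5 to 165.6 (-1.93), but the mean of all its probe sets gave -0.82 at 12 h. Pag1, an adaptor that recruits Csk, went from 1175.5 to 475.9 (-1.30). Pag1 was named after its values were seen. Chn1 and Pag1 both fell on average, on the probe set used for each.

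MHC class II genes were lower by less at 12 h than in the other pairs. None of 13 was past 2-fold, the median was -0.31 against -0.79 at 0 h and -0.82 at 24 h, and 6 fell on average. H2-Ab1 read 15234.7 and 10711.1 (-0.51), with -1.64 and -1.16 in the unstimulated and 24 h pairs, and H2-DMb2 was at -0.26, with -1.87 and -1.38. No gene passed the test of a departure at 12 h, given below. MHC class I genes had 0 of 13 past 2-fold and a median of -0.23. Costimulatory genes had 1 higher and 1 lower of 16 and a median of -0.28. Over all genes 1.81% were higher and 1.12% lower, and the median was 0.02.

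Most cell cycle genes read slightly lower with drug. Of 44 genes of the G1/S phase and replication 36 read below 0, with a median of -0.28, 0 past 2-fold, and 18 that fell on average, such as Fen1 (-0.73), Pold1 (-0.77) and Cdc6 (-0.64). Of 41 mitotic genes 37 read below 0, with a median of -0.24, and 5 fell and 1 rose on average. The 15 housekeeping genes had a median of -0.12, with 14 below 0. Of all 11610 genes above the floor, 5478 read below 0. Cdkn2b, the TGF-β-responsive inhibitor p15, read 582.1 unstimulated and 1244.4 and 592.9 at 12 h with DMSO and drug (-1.07), and fell on average. Cdkn1b (0.66) and Cdkn1a (0.72) rose on average. The MYC and ribosome biogenesis list had a median of -0.06, and its member past 2-fold, Mycn, went from 187.2 to below the floor (31.9).

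In the remaining lists few genes passed 2-fold. Bbc3 (PUMA), a death-promoting BCL-2 protein, went from 721.9 to 1472.6 (1.03) and Bcl2l11 (BIM) from 15176.6 to 22358.8 (0.56), and both rose on average, in a list with 1 of 12 past 2-fold and a median of 0.31. Death receptors and caspases (0 of 15, median 0.09), p53 targets (0 of 16, median 0.19), lysosome and autophagy genes (0 of 28, median 0.18) and adhesion genes (0 of 27, median -0.09) had none. Nfkb2 went from 387.4 to 891.6, 2.30-fold higher, and rose, 1 of 16 NF-κB genes (median 0.14), and 1 interferon gene was higher, Cish (at least 2.88-fold), and 1 lower, Gbp3 (-1.05), of 22 (median 0.01). Nfe2l1, an activator of proteasome genes, went from 1299.2 to 2793.3 (1.10) and rose, while Gstm1 was lower (-1.11), 2 of 19 redox genes (median -0.22). Besides Vegfa, 1 of 24 glycolysis and hypoxia genes was past 2-fold, Ankrd37, from 963.0 to 429.8 (-1.16), and the median was -0.25. Chemokine, cytokine and lipid receptors had 1 of 16, Ptgir, and a median of 0.23. Aryl hydrocarbon receptor genes (0 of 7, median 0.10) included Cyp1a1, Cyp1b1 and Nqo1, none above 110 on either array, and sterol transport and SREBP control had 0 of 12 (median -0.13).

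All 9 B cell markers were above the floor, and their summed signal was 88451.6 with DMSO and 69947.3 with drug at 12 h. 3 of 8 T and NK cell markers were above the floor on at least 1 array, with sums of 234.0 and 298.7. 5 of 10 myeloid markers were above it, with sums of 1752.7 and 1243.7. Their median difference was -0.06, with 3 below 0 and 2 above. Cd68 (828.3 and 391.1) and Adgre1 (357.3 and 171.7) were the 2 at least 2-fold lower with drug. 2 of 8 stromal and 2 of 6 erythroid and platelet markers were above it. All 5 plasma cell markers were, with sums of 37928.7 and 30048.9. The part of other cells in the differences was not tested, and in bulk RNA fewer cells of a type and less RNA per cell cannot be told apart.

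Bright and dim genes are given apart, since 2-fold differences at 12 h were not spread evenly over brightness. Among genes whose brighter 12 h array lay between 150 and 300, 12.5% were past 2-fold, against 1.37% between 1000 and 3000. Of the 43 higher genes with at least 1000 on the brighter array, 31 were also 2-fold higher in the unstimulated pair and 31 at 24 h. Of the 117 with under 300, 18 and 20 were. Of the 22 bright lower genes 13 and 15 were also 2-fold lower in the other pairs, and of the 78 dim lower genes 4 and 7. In all, 105 of the 210 higher and 82 of the 130 lower genes passed 2-fold in the same direction in neither other pair, where 3.20% and 3.14% of genes were higher and 1.32% and 1.93% lower. Of the higher genes 77 had another probe set above the floor, all on the same side for 56 and all 2-fold higher for 20. Of the lower genes 38 had one, all on the same side for 29 and all 2-fold lower for 2. Prkar1b (-1.71) and 1810014B01Rik (-1.58) had other probe sets on both sides of 0, reaching 0.50 and 1.01.

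Whether the drug acted differently at 12 h was tested as the 12 h difference minus the mean of the 0 h and 24 h differences. No gene passed in limma after adjustment, the smallest adjusted p being 1.0, and 161 higher (1.38%) and 160 lower (1.37%) genes had an unadjusted p under 0.05. The largest departures were all in the lower direction. Sgtb, a cochaperone, went from 158.9 to 136.5 at 12 h (-0.22) but was at least 3.45-fold and at least 5.15-fold higher with drug at 0 h and 24 h, a departure of -2.30 ± 0.46 with an unadjusted limma p of 0.00437. Spire2 (-2.22), Bvht (-2.14), Tbxa2r (-2.09) and Tmc8 (-2.08) followed. The departure of E2f5 was 1.12 ± 0.24, with an unadjusted limma p of 0.00595. The 12 h pair also had 12 h of drug against 24 h in the others, so length of exposure and time of TGF-β cannot be told apart.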

How the data were processed

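Total RNA of A20 cells was labelled with biotin and hybridized to 6 arrays, per the labels' protocols. The deposited values are 1 linear intensity (signal) per probe set and array, made by the authors with GCOS 1.2, per the submitters' processing notes. Its scaling and detection settings were not given in the sources used here. The 2% trimmed mean was 500.0 on each array, and the medians lay between 69.3 and 80.9 (73.0 with DMSO and 76.1 with SP600125 at 12 h), so signals were used as deposited. Array number limits the precision.

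Gene symbols came from the platform annotation: 34958 probe sets had 1 symbol, 932 several and 9211 none listed, which gave 18194 genes. Signals were floored at 74.2 before log2, which understates differences of dim genes. A difference of 2-fold was counted, as in the study's design. limma 3.58.1 (R 4.3.3, lmFit and eBayes with an intensity trend) was run in 2 models on the 11698 genes that exceeded the floor on 2 or more arrays. The first had the 3 TGF-β states, the drug and the drug at 12 h, with residual and prior degrees of freedom of 1 and 3.85. The second had the states and the drug, with 2 and 6.09. The p-values reflect only how far the drug differences disagreed between TGF-β states, together with the limma prior. In the first model these states were 0 h and 24 h. That disagreement may be technical, and with 1 array per condition it cannot be told apart from a true difference between states. Tables and plots were made with Python 3.11.15.

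45 gene lists held 866 genes, 794 of them found. The comparison and the lists were chosen with earlier results of these data known. Named genes were the 15 largest differences each way, up to 4 members of a list with the largest differences plus its defining members, the 5 largest departures at 12 h, and up to 8 genes each way by TGF-β and drug. Members beyond these are named after their values were seen. Promoters are those of RefSeq, 27025 genes. Alternatives were the floor, scaling, probe set choice, genes tested and leaving out 1 array.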

Additional observations from a re-analysis of the deposited data

Results flagged for a closer look

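Tmc8, Wbp2nl and Spsb2 were lower with SP600125 at 12 h, by -1.72, -1.48 and -1.46, and at least 2-fold higher with drug in another pair, Tmc8 at 24 h (1.29) and the others in unstimulated cells (1.35 and 1.42). The 3 genes were dim, at most 339.8 on any array, and these opposite directions were not tested beyond the limma departure, which called none of them. The control probe sets for 18S ribosomal RNA, which no comparison used, averaged 4291.2 on the drug array of the 24 h pair, against 621.4 and 651.4 in the 12 h pair. The 3′ to 5′ ratio of the actin control probe sets was 1.89 on that array and 1.29 and 1.32 in the 12 h pair.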

How the results depend on the processing

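The counts of higher and lower genes at 12 h moved with the floor. They were 1254 and 1115 with a floor at the 25th percentile (20.3), 76 and 42 with a floor of 200, 129 and 77 for the mean of all probe sets, and 330 and 252 for log2 of signal plus 50 without a floor. Scaling to a common median gave 176 and 147, quantile normalization 177 and 145, and leaving out shared probe sets 201 and 126. The higher share was 61.8%, and 54.5% with median scaling, 55.0% with quantile normalization, 52.9% with the lower floor and 56.7% with signal plus 50. The limma error at 12 h called 30 genes with a floor of 200, 121 with signal plus 50 and 399 over all genes, and the departure at 12 h 2 with signal plus 50 and 387 over all genes. Over all genes the prior fell to 0.64 degrees of freedom. The average effect, 925 genes in all, called 175 for the mean of all probe sets, 0 over all genes and 0 to 133 without 1 array in turn, of which the runs other than the 24 h drug array were added after seeing the data. Median scaling turned its balance from 485 rising and 440 falling to 349 and 678. The difference of 1810014B01Rik turned to 0.22 for the mean of all probe sets. Of 427 recomputed values of 61 named genes, 386 kept their direction and side of 2-fold, 40 fell under 2-fold and 1 turned. List medians moved by over their spread for 3 of 313, all marker lists of 5 or fewer genes above the floor. The medians of Smad targets, the JNK cascade, aryl hydrocarbon and interferon genes, at most 0.10 in size, changed sign under some settings. The average effect pairs drug and DMSO by TGF-β state, and the labels give no replicate numbers to block on. The median standard error at 12 h, 0.29, limits what the pair can show.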
